A study of Homo sapiens with 3 samples.

Results

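The comparison described here sets KYSE510 cells that received short hairpin RNA 2 (sh2) against cells that received a scrambled hairpin (control), across all genes. KYSE510 is a long-established cell line from a human squamous carcinoma of the esophagus. All groups were infected with lentivirus for 24 h and then kept for 48 h in 4 µM puromycin, which kills cells without the vector, so the scrambled control carries the vector and the drug exposure too. The sh2 vector targets TCONS_02256997, a transcript that was not analysed here, and the series set out to screen for its potential targets. Another group carried hairpin 1 (sh1) against the same transcript and serves below only as a reference. Each group is 1 sample with 3 numbered gene tables, so 2 of the 3 samples and 6 of the 9 tables enter the comparison. The tables are treated as 3 libraries per group. Nothing in the labels says whether they come from separate cultures, and the p-values therefore cover only how far these tables differ, which may be technical. With 1 sample per group, an effect of a hairpin cannot be told apart from other differences between the samples.

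A short hairpin RNA is cut by the cell into a small guide RNA that leads Argonaute proteins to matching transcripts, and a guide can also repress transcripts that match it only in part. Squamous cancer cells of the esophagus depend on TP63 and SOX2, transcription factors of the basal layer of stratified epithelium. Basal cells hold to the matrix through integrins and express KRT5, KRT14 and KRT15, whereas differentiating cells leave the cell cycle and build a cornified envelope from proteins such as involucrin.

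Each of the 6 libraries held between 15012961 and 16092417 estimated counts, and counts scaled to a common library size are given as CPM. Of 19266 genes, 13580 passed a filter on low counts and were tested in edgeR by quasi-likelihood, and p-values were adjusted by the Benjamini-Hochberg method. A gene is called changed at an adjusted p below 0.05. Levels are means ± SD over 3 libraries and changes are log2 fold changes of sh2 over control ± SE. The squamous identity of the line held in both groups. All 10 squamous epithelial markers were above 1 TPM (a share of all transcripts that corrects for gene length) in control, with sums of 8100 to 8190 TPM in control and 6580 to 6780 TPM with sh2. Markers of columnar epithelium summed to at most 1.42 TPM, with CDX1, CDX2 and TFF3 at 0, and the T cell gene CD3E was also at 0. Of the 8 leukocyte markers, 4 were above 1 TPM in control. They summed to 114 to 122 TPM in control and 158 to 179 TPM with sh2 over all 8, most of it from CD68, a lysosomal membrane protein. Fibroblast markers summed to 20.2 to 21.5 TPM in control and 26.7 to 28.2 TPM with sh2, nearly all of it COL1A1, while COL1A2 was at 0. Endothelial markers, 2 of 6 above 1 TPM in control, summed to 6.39 to 7.35 TPM in control and 7.91 to 9.11 TPM with sh2. The part of these markers in the results below was not tested.

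With sh2, a large share of the transcriptome differed from control, mostly by small amounts. Of the 13580 genes, 9298 (68.5%) were called, 4646 higher (34.2%) and 4652 lower (34.3%). The median log2 fold change was 0, with quartiles of -0.32 and 0.29. The sh2 libraries did not overlap the control libraries for 9540 genes (70.3%). Changes of 2-fold or more were called for 1053 genes (7.75%), 427 higher (3.14%) and 626 lower (4.61%). Refitted on the genes with a mean of at least 10 CPM, 132 were higher by that much and 368 lower. Among the 10164 genes with a mean of at least 10 CPM in control or sh2, 38.7% were called higher and 38.8% lower. The counts of gene lists below are set beside these shares as a description only. The lists and their members were chosen with earlier results of these data known, so the comparison is no test. The variation between tables of a sample beyond counting noise, edgeR's common biological coefficient of variation, was 2.33%. The calls of 13 genes named below with small changes or low levels, among them CCNE1, LAMA3 and ZYX, were lost without 1 library. The plot of all genes shows the spread of the changes over the range of expression.

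**Figure D1:**
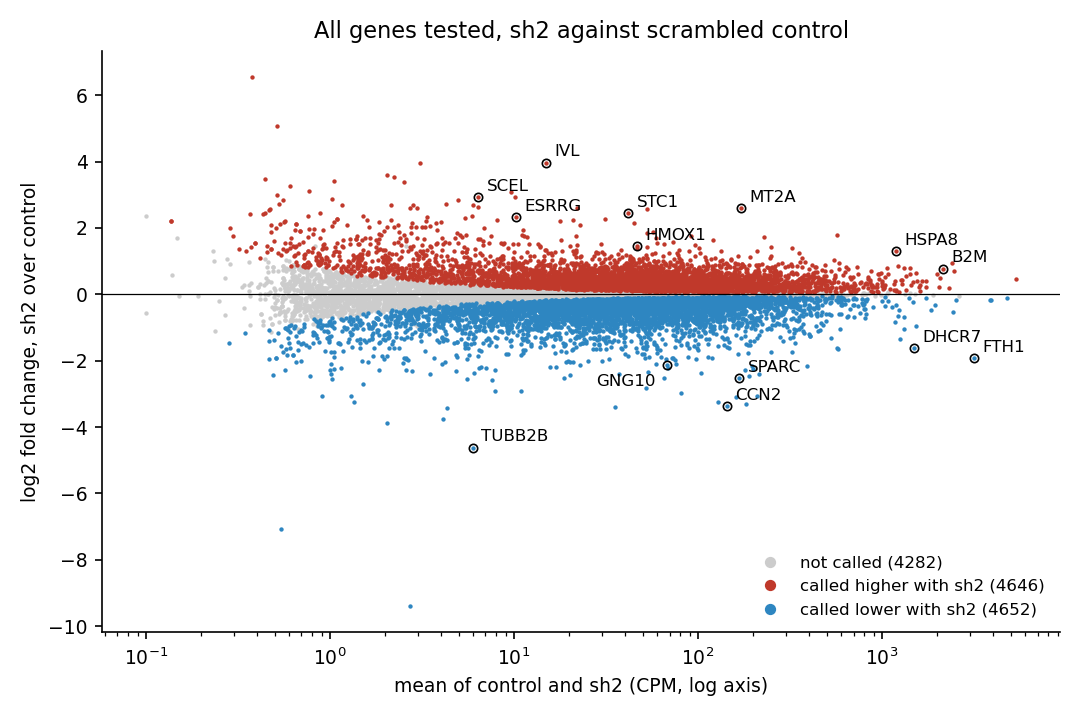
Each point is 1 of the 13580 genes tested; the horizontal axis is the mean of control and sh2 in CPM on a log axis and the vertical axis is the log2 fold change of sh2 over control. Red points are the 4646 genes called higher, blue points the 4652 called lower and grey points were not called; circled genes are named in the text, and most points lie within 1 unit of 0.

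An extreme ratio at low counts belonged to a pair of near-identical copies, whose separate values are uncertain. SULT1A3, a sulfotransferase gene named here after its values were seen, had 250 counts over the control libraries and 0 in the 3 sh2 libraries. One control library was also at 0 for it (8.13, 0 and 8.24 CPM), and its near-identical neighbour SULT1A4 had 48.4 ± 2.63 CPM in control and 62.1 ± 1.71 with sh2. Summed, the pair stood at 53.9 ± 2.17 CPM in control and 62.1 ± 1.71 CPM with sh2.

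Among called genes with a mean of at least 10 CPM in control or sh2, the greatest rises included genes of the squamous cornified envelope, a nitric oxide synthase and secreted proteins. IVL (Entrez gene 3713), which encodes involucrin of the cornified envelope, stood at 2.08, 1.66 and 1.58 CPM in the control libraries and 27.4, 26.7 and 29.8 with sh2, a rise of 15.7-fold. SCEL, which encodes sciellin of the same envelope, rose from 0.976, 1.46 and 1.98 to 10.2, 11.1 and 12.5 CPM. Both genes rose less with sh1, with log2 fold changes of 2.36 and 1.53 against 3.97 and 2.93 with sh2. The difference between the hairpins was 1.61 ± 0.081 for IVL and 1.41 ± 0.133 for SCEL (edgeR adjusted p = 4.92e-17 and 1.07e-10).

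ATP6V1B1, a subunit of the proton pump, went from 2.33 ± 0.214 to 17.9 ± 2.02 CPM. NOS3, the endothelial nitric oxide synthase, went from 1.6 ± 0.34 to 10.4 ± 1.19 CPM. STC1, a secreted glycoprotein hormone, went from 13.5, 12.4 and 12.9 CPM in control to 71, 67.2 and 73.4 CPM with sh2. Each of these 3 genes lay higher with sh2 than with sh1, by 1.25 ± 0.109, 1.83 ± 0.147 and 1.12 ± 0.049 on the log2 scale. AGR2, a disulfide isomerase of mucus-producing cells, rose by 2.58 ± 0.058 with sh2 and 2.05 ± 0.063 with sh1. CEACAM6, an adhesion molecule, rose by 3.07 ± 0.119 with sh2 and 3.43 ± 0.114 with sh1, so it stood below its sh1 level (difference -0.36 ± 0.072). VTCN1, an immune checkpoint ligand, and MT2A, a metal-binding metallothionein, rose by 2.64 and 2.6. ALPP, a placental alkaline phosphatase with the near-identical neighbour ALPG, rose by 2.61, and the summed pair rose from 6.75 ± 1.41 to 41.6 ± 1.62 CPM.

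Among the same genes, the falls of greatest size included a tubulin, cytokines and growth-control genes. TUBB2B, a beta-tubulin isotype, stood at 11.3, 10.2 and 12.9 CPM in control and 0.313, 0.871 and 0.192 CPM with sh2, and 1.29, 1.49 and 1.09 with sh1. The sh2 libraries, with 22 counts in all, lay below every control and sh1 library. CCL20, a chemokine, fell from 143 ± 6.52 to 18.3 ± 0.159 CPM and differed from its sh1 level by -1.14 ± 0.066 on the log2 scale. EGR3, an immediate early transcription factor, fell from 19.3 ± 0.716 to 2.58 ± 0.204 CPM and from its sh1 level it differed by -0.98 ± 0.159. The matricellular gene CCN2 and the glutathione-degrading enzyme gene CHAC1 fell by less than with sh1, with differences of 1.53 ± 0.084 and 0.62 ± 0.12. The remaining falls among the top 10 were CXCL8 (-3.3), IL1A (-3.24), TCIM (-3.09), EGR1 (-3.06) and FGL1 (-2.92). With sh1, IL1A, TCIM and EGR1 fell further (-3.87, -3.34 and -3.29) and CXCL8 fell less (-3.05). For FGL1, a secreted fibrinogen-like protein, the change with sh1 was -2.93, and the difference between the hairpins was 0.01 ± 0.228 (adjusted p = 0.969, edgeR).

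Another set of genes changed with sh2 while sh1 moved them by less than 0.5 on the log2 scale. The rule that chose them used both contrasts, so their sh1 values are given as a description. SPARC (Entrez gene 6678), a secreted protein that binds collagen, stood at 284, 286 and 286 CPM in control, 380, 382 and 379 with sh1 and 49.3, 48.8 and 49.5 with sh2. It is the gene of greatest fall in this set, 5.79-fold below control, with the sh1 libraries above control. COL4A4, a basement membrane collagen chain, fell from 11.1, 13.2 and 15 to 3.26, 2.3 and 2.49 CPM and stood at 11, 10.4 and 11.5 with sh1. GNG10, a G protein gamma subunit, fell from 113, 112 and 108 to 25.3, 25.3 and 25.1 CPM. GNG10 overlaps the readthrough gene DNAJC25-GNG10, and the sum of both fell from 111 ± 2.7 to 25.4 ± 0.461 CPM.

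TCTN3, a protein of the base of the primary cilium, fell from 32.5 ± 1.88 to 7.9 ± 1.09 CPM. MTMR1, a lipid phosphatase of the myotubularin family, fell from 51.9 ± 1.25 to 13.6 ± 1.09 CPM. CSTA, cystatin A, a protease inhibitor of the cornified envelope, stood at 196, 186 and 181 CPM in control and 49.8, 50.3 and 47.3 with sh2. In all 6 falling genes every sh2 library lay below every control and every sh1 library, which the rule that chose them makes likely.

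The rises of this kind included a splicing factor, a nuclear receptor and a heme-degrading enzyme. PTBP2, a splicing repressor best known from neurons, stood at 27.8, 26.9 and 29.5 CPM in control, 29.1, 29.1 and 28.2 with sh1 and 93.5, 85.4 and 93 with sh2, a rise of 3.23-fold. ESRRG, an orphan nuclear receptor of oxidative metabolism, rose from 3.19, 3.66 and 3.43 to 19.3, 16.4 and 15.7 CPM. HMOX1, heme oxygenase 1, which releases iron from heme, rose from 24.5, 25 and 25.5 to 66.1, 69.6 and 68 CPM and stood at 25, 26.4 and 26.9 with sh1. NEXN, an actin filament protein, rose from 5.47 ± 0.851 to 18 ± 0.963 CPM. HNMT, the enzyme that methylates histamine, rose from 7.52 ± 0.476 to 20.3 ± 1.94 CPM, and SYDE1, a GTPase-activating protein, from 3.55 ± 0.482 to 10 ± 1.84 CPM. The plot of these 12 genes shows their values in each library.

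**Figure D2:**
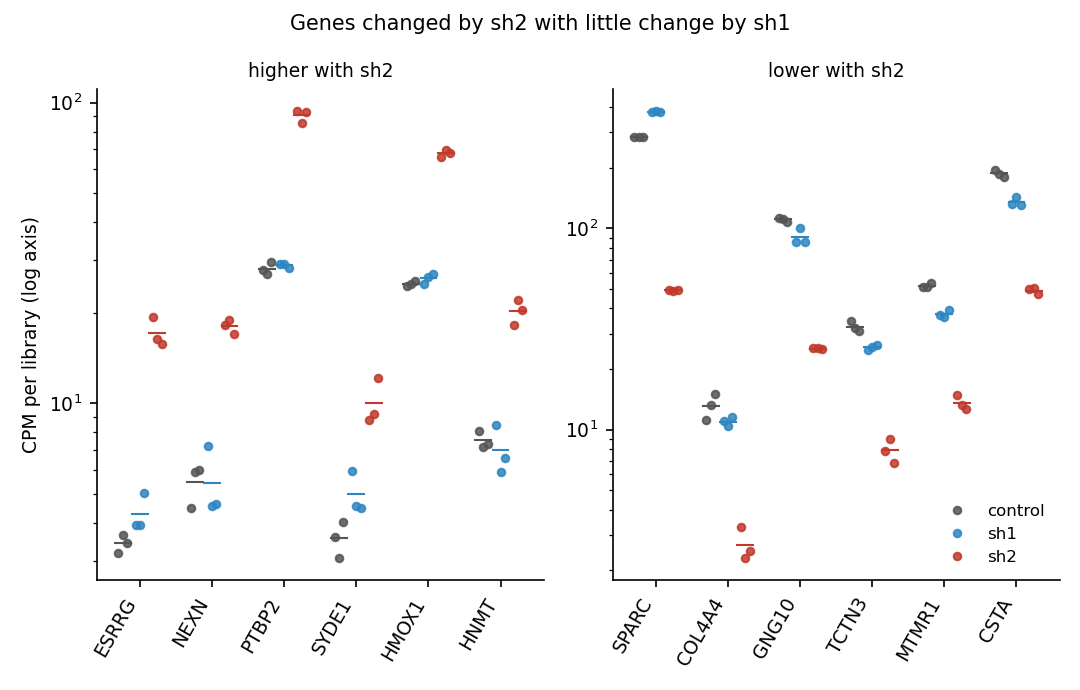
CPM of 12 genes in each of the 9 libraries, on log axes, with control in grey, sh1 in blue and sh2 in red; points are libraries and short lines are group means. The 6 genes on the left rose with sh2 (PTBP2 to a mean of 90.7 CPM) and the 6 on the right fell (SPARC to a mean of 49.2 CPM).

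Genes of cholesterol synthesis were lower with sh2. Cholesterol is built from acetyl-CoA through mevalonate, squalene and lanosterol, and the enzymes of the route are switched on together by SREBP2, the product of SREBF2, when membranes run low in sterol. Of 20 enzymes of the route, 16 fell and 1 rose, against 38.8% and 38.7% of the genes with a mean of at least 10 CPM, as given above. Their median log2 fold change was -0.56 with sh2 and 0.04 with sh1, beside 0 over all genes tested with sh2. DHCR7, which carries out the last reduction to cholesterol, stood at 2280, 2270 and 2200 CPM in control and 724, 726 and 738 with sh2. The groups did not overlap, as for 70.3% of all genes tested, and DHCR7 was 3.08-fold lower (log2 -1.63 ± 0.024, edgeR adjusted p = 5.63e-30).

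The size of the fall differed between steps. HMGCS1, which acts at the head of the route, changed by -0.19 ± 0.024. SQLE, squalene epoxidase, fell from 596 ± 10.5 to 330 ± 4.91 CPM, and CYP51A1, lanosterol demethylase, from 215 ± 1.41 to 113 ± 5.85 CPM. FDFT1, squalene synthase, was the exception that rose (0.19 ± 0.026), and EBP, PMVK and MSMO1 did not pass the test, with values of -0.03, 0 and 0.05.

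The regulators and transporters of sterols did not move as a block. Of 20 genes of sterol sensing, uptake and export, 7 rose and 10 fell, with a median of -0.07. SREBF2 itself stood at 435, 443 and 449 CPM in control and 256, 247 and 266 with sh2, a log2 change of -0.79 ± 0.029, and SREBF1, its relative that drives fatty acid genes, changed by -0.3 ± 0.03. STARD4, a sterol carrier, fell from 155 ± 2.96 to 79.5 ± 2.41 CPM. MYLIP, a ubiquitin ligase induced by sterol through LXR, rose by 1.01 ± 0.049. The sterol exporters ABCA1 and ABCG1, both LXR targets, parted, with changes of 0.71 ± 0.104 and -2.05 ± 0.163 from control levels of 5.99 and 6.8 CPM. INSIG1, which holds SREBP in the endoplasmic reticulum, changed by -0.1 ± 0.038.

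Promoters of the route were read from RefSeq (assembly GRCh38.p14), as 250 bases before to 50 after each gene start, for the 11061 tested genes with an entry. A sterol response element was searched as TCACNCCAC on both strands, with N for any base, and was found in 1.1% of promoters. None of the 15 cholesterol enzymes with an entry held these letters in this window. The promoter of SREBF2 did, with an inverted CCAAT box downstream of the element. In the list of fatty acid synthesis and desaturation below, 1 of 18 promoters held it too, that of a gene whose change did not pass the test (0.07). The CCAAT box was searched as CCAAT on both strands and was found in 12 of the 15 enzymes (80%) and in 36.8% of all promoters. The SREBF2 sequence is shown because the product of the gene switches on the enzymes of the route and its promoter holds the element. It covers chr22:41832945-41833055 on the + strand, from base -160 to base -50 relative to the start. The sterol element and the CCAAT box are in capitals.
SREBF2: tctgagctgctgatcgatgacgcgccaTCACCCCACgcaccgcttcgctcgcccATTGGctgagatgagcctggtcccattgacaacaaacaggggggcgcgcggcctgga

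Fatty acid genes moved less evenly. Of 22 genes of fatty acid synthesis and desaturation, 6 rose and 10 fell, with a median of -0.04. SCD, the main desaturase, fell from 1500 ± 14.9 to 848 ± 14.4 CPM, and ACSS2, which makes acetyl-CoA from acetate, from 159 ± 2.23 to 73.8 ± 0.828 CPM. FADS1, a desaturase of polyunsaturated chains, and ACACA, the first enzyme of synthesis, changed by -0.59 ± 0.031 and -0.4 ± 0.028. ELOVL6, an elongase, rose by 0.81 ± 0.039. FASN, fatty acid synthase, changed by -0.11 ± 0.026, and ACLY and FADS2 did not pass the test, at 0.01 and -0.05. Of 20 genes of mitochondrial fatty acid oxidation, 6 rose and 5 fell. CPT1A, which admits fatty acids to mitochondria, fell by 0.47 and PPARA, a nuclear receptor of the pathway, by 0.91 on the log2 scale. ECHS1 and HADHA changed by -0.68 ± 0.05 and -0.29 ± 0.03, and ACADVL and ACADM did not pass the test, at -0.04 and 0.03.

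Iron genes moved in both directions. Ferritin, a shell of heavy (FTH1) and light (FTL) chains, stores iron. TFRC brings iron in with transferrin and SLC40A1 exports it. FTH1 (Entrez gene 2495) stood at 5060, 4990 and 5020 CPM in control, 6000, 6230 and 6340 with sh1 and 1310, 1280 and 1410 with sh2. Per length, FTH1 went from 10200 ± 83.1 to 2580 ± 127 TPM, the greatest loss of any called gene, and FTL from 11900 ± 123 to 10100 ± 210 TPM. Per length, the heavy chain thus stood slightly below the light chain in control and far below it with sh2. FTH1 has processed pseudogenes of near-identical sequence, which leaves the assignment of its reads uncertain.

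Of 20 genes of iron storage, uptake and export, 7 rose and 11 fell, with a median of -0.17. TFRC fell from 1010 ± 27.2 to 777 ± 31.1 CPM, although it was higher with sh1 (log2 0.66). STEAP3, the reductase that frees iron in endosomes, fell from 73.1, 75.8 and 76.4 to 32.3, 32.3 and 35 CPM. Its groups did not overlap, as for 70.3% of all genes tested. SLC39A14, a zinc and iron importer, and ACO1, iron regulatory protein 1, were lower as well (log2 -1.27 and -1.03). IREB2, iron regulatory protein 2, which represses ferritin translation, rose from 83.5 ± 4.53 to 125 ± 2.72 CPM. SLC40A1, the exporter ferroportin, rose from 8.98, 9.51 and 11.3 to 34.7, 32.2 and 33.2 CPM. NCOA4, the receptor that carries ferritin to the lysosome, changed by 0.15 ± 0.031. The plot of sterol and iron genes shows the libraries of both groups.

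**Figure D3:**
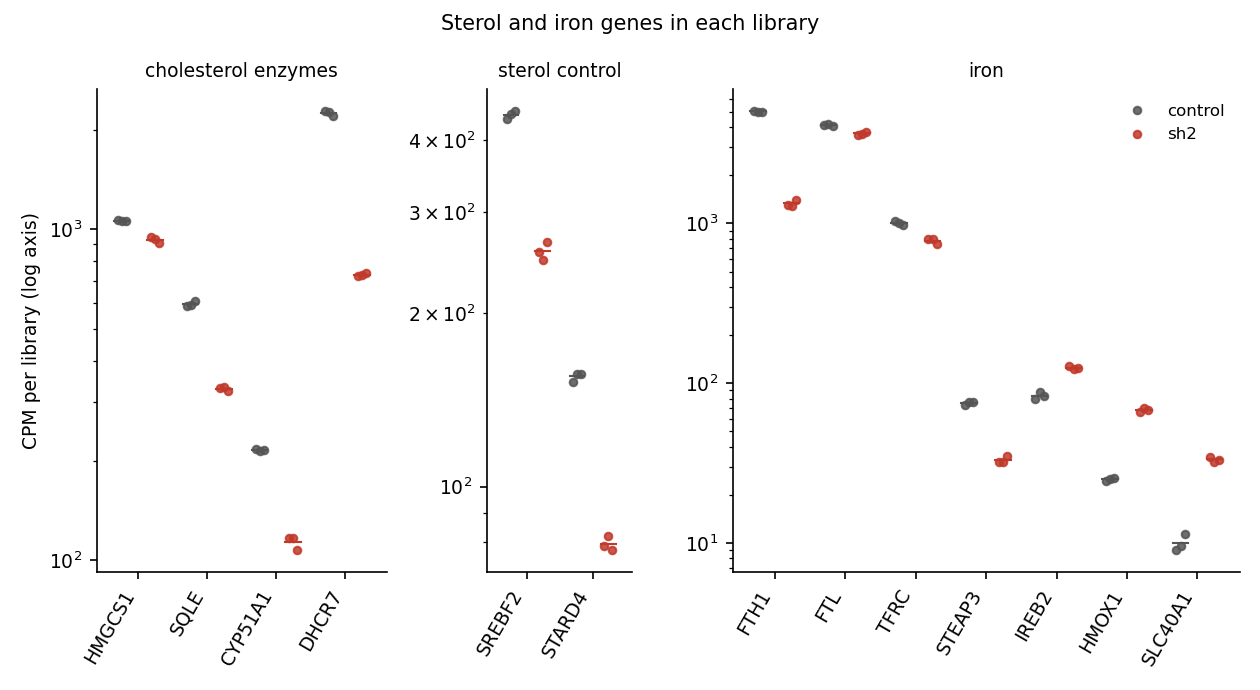
CPM of cholesterol synthesis enzymes, sterol control genes and iron genes in each of the 3 control (grey) and 3 sh2 (red) libraries, on log axes; points are libraries and short lines are group means. The enzymes, SREBF2, STARD4, FTH1, FTL, TFRC and STEAP3 are lower with sh2 and HMOX1, IREB2 and SLC40A1 are higher.

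More antioxidant genes fell than rose. NRF2, the product of NFE2L2, drives genes that make glutathione and detoxify electrophiles, and GPX4 uses glutathione to remove lipid peroxides, the step whose failure causes ferroptosis. The list of 27 genes holds NFE2L2 itself and a regulator of NRF2 beside the targets. Of these genes, 8 rose, the regulator among them, and 16 fell, NFE2L2 among them (median -0.18). NFE2L2 fell from 320 ± 6.07 to 214 ± 4.61 CPM (log2 -0.58). GCLM and GCLC, the subunits of the first enzyme of glutathione synthesis, fell by 1.11 and 0.66 on the log2 scale. With sh1, NFE2L2, GCLM and GCLC changed by -0.77, -1.86 and -0.71, and the list median was -0.19. SLC7A11, the cystine importer, fell from 367, 362 and 357 to 74.4, 68.2 and 64.7 CPM, and its partner chain SLC3A2 from 510 ± 14.5 to 237 ± 5.15 CPM. SLC3A2 lay below its sh1 level by 0.72, whereas SLC7A11 fell with both hairpins (-2.39 and -2.06).

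Among peroxide-handling genes, GPX4 fell from 188 ± 4.81 to 143 ± 4.26 CPM and SRXN1, sulfiredoxin, from 150 ± 8.91 to 110 ± 3.01 CPM. CBS, which starts cysteine synthesis from homocysteine, fell from 76.6 ± 2.74 to 22.2 ± 1.29 CPM. Of the 18 genes of glutathione peroxidases and ferroptosis, 3 rose and 12 fell, with a median of -0.33. ACSL4, which loads membranes with oxidisable lipids, and AIFM2, which protects them through coenzyme Q, rose slightly, by 0.13 ± 0.033 and 0.17 ± 0.05. NQO1, a quinone reductase and a standard NRF2 target, changed by -0.13 ± 0.029, and TXNRD1, thioredoxin reductase, did not pass the test at -0.01. HMOX1, a target of the same factor, rose as given above.

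Genes of cell division rose. Mitotic genes share a promoter element, the cell cycle homology region, through which a repressor complex holds them down until G2, whereas E2F factors drive the genes of DNA replication. Among 32 G2/M and mitosis genes, 29 were called higher and 2 lower, with a median of 0.74 with sh2 and 0.31 with sh1. CCNA2, cyclin A2, stood at 85.5, 87.5 and 91.9 CPM in control, 63.2, 61.6 and 66.1 with sh1 and 186, 174 and 186 with sh2. It was thus above control with sh2 and below it with sh1. CDK1, the mitotic kinase, likewise rose with sh2 (0.6 ± 0.044) and fell with sh1 (-0.32 ± 0.049). For these genes the difference between hairpins was 1.52 ± 0.039 and 0.92 ± 0.046 (adjusted p = 5.16e-24 and 4.59e-17, edgeR).

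TPX2, which nucleates spindle microtubules, went from 220, 224 and 223 to 411, 416 and 423 CPM, with no change called with sh1 (0.01). TOP2A, topoisomerase II alpha, went from 372 ± 5.15 to 603 ± 20.9 CPM, again with sh1 near control (0.01). CDC20 and UBE2C, which run the anaphase-promoting complex, rose by 1.16 ± 0.039 and 1.14 ± 0.04. PLK1 and AURKA, mitotic kinases, rose by 1.08 ± 0.037 and 0.85 ± 0.04, and the kinesins KIF11 and KIF20A by 0.89 ± 0.038 and 1.29 ± 0.036. CCNB1, cyclin B1, rose by 1.12 ± 0.036 and BIRC5, survivin, by 0.55 ± 0.048. The exceptions were CDC25B, a phosphatase that triggers mitosis (-0.54 ± 0.031), PTTG1, securin (-0.25 ± 0.042), and MAD2L1, a spindle checkpoint protein, which did not pass the test (0.04).

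The cell cycle homology region was searched as TTTGAA on both strands. It was present in 16 of the 27 mitotic genes with a promoter entry (59.3%) and in 10.1% of all promoters, and the CCAAT box was present in 22 of the 27 (81.5%). Of the 16 genes with the element, 15 rose and none fell, with a median of 0.72. Of the 11 without it, 9 rose and 2 fell, with a median of 0.78, so the change was similar with and without these letters. The promoters below are shown because their genes rose and carry the element close to the start. Each runs from base -120 to base -10 relative to the start, with the cell cycle element and the CCAAT box, on either strand, in capitals.
CCNB2: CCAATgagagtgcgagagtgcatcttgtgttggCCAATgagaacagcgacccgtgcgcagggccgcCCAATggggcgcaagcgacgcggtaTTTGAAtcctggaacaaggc
PLK1: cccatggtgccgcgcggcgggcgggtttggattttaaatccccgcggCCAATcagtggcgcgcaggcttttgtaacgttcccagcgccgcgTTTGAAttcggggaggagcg
KIF11: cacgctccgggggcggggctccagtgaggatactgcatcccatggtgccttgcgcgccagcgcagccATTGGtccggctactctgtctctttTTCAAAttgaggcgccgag
CDC20: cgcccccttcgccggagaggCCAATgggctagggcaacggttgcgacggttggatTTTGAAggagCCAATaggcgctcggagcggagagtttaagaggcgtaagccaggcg
These windows lie on the + strand at chr15:59105026-59105136 (CCNB2), chr16:23678769-23678879 (PLK1), chr10:92593010-92593120 (KIF11) and chr1:43358861-43358971 (CDC20) of GRCh38.p14. In CCNB2, PLK1 and KIF11 the element is the match closest to the start, with the CCAAT boxes upstream of it, and in CDC20 a CCAAT box follows it. CCNB2, cyclin B2, rose from 43 ± 3.32 to 86.6 ± 2.88 CPM.

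Of 32 genes of G1/S and DNA replication, 25 rose and 4 fell, with a median of 0.6 with sh2 and 0.65 with sh1. The factors E2F1 and E2F2 rose from 31.2 ± 1.34 to 64.5 ± 1.35 CPM and from 22.1 ± 0.773 to 51.5 ± 3.21 CPM. GINS2 and MCM2, parts of the replicative helicase, rose by 1.11 ± 0.068 and 0.7 ± 0.033, TYMS, thymidylate synthase, by 0.76 ± 0.03, and CDC6, which loads the helicase, by 0.4 ± 0.042. CCNE1, cyclin E1, rose by 0.21 ± 0.084 with sh2 and 1.8 ± 0.069 with sh1, and CCND1, cyclin D1, fell by 0.29 with sh2. PRIM1, the primase subunit, fell from 26 ± 0.704 to 14.9 ± 0.43 CPM and stood at 26 ± 1.08 with sh1. An E2F element, searched as TTTCCCGC, TTTGGCGC or TTTCGCGC, was present in 15 of 26 of these promoters (57.7%) and in 4.54% of all. Of the 15 genes with it, 12 rose and 1 fell (median 0.72), and of the 11 without it, 9 rose and 2 fell (median 0.37). Over all genes tested with a promoter entry, the medians were 0.05 with the element and 0.01 without it.

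Interferon-stimulated genes were on the whole higher, while the interferon genes were lower. Interferons bind surface receptors and, through factors that include STAT2 and IRF9, switch on a set of antiviral genes. Double-stranded RNA can start this response through RIG-I, MDA5 and TLR3. Of 38 interferon-stimulated genes, 26 rose and 9 fell, with a median of 0.27 with sh2 and 0.01 with sh1. RSAD2, the antiviral enzyme viperin, stood at 51.5, 59.3 and 55.6 CPM in control and 146, 147 and 145 with sh2. IFIT1, which binds foreign RNA, rose from 235 ± 3.18 to 497 ± 15.4 CPM. IFI6, a small protein that restrains cell death, went from 2670 ± 223 to 4590 ± 170 TPM, among the greatest gains per length. With sh1, the log2 changes of RSAD2, IFIT1 and IFI6 were 0.56, 0.79 and 0.9. For IFI6 the difference between the hairpins was -0.05 (edgeR adjusted p = 0.212).

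OAS3, which senses double-stranded RNA, rose by 0.41 ± 0.023, ISG15, a ubiquitin-like modifier, by 0.28 ± 0.037, and MX1, an antiviral GTPase, by 0.2 ± 0.04. IRF1, a transcription factor of the response, changed by -0.28 ± 0.029. IFITM1, a membrane protein that blocks viral entry, fell from 628, 637 and 616 to 286, 299 and 308 CPM, and its neighbour IFITM3 did not pass the test (0.06). Members of this list thus moved in both directions. IFITM1 and IRF1 were called lower with sh1 too (-0.78 and -0.81).

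The type III interferon genes fell from low levels. IFNL1 stood at 14.7, 16.4 and 16 CPM in control and 6.32, 5.91 and 6.78 with sh2. IFNL2 fell from 10.9 ± 0.283 to 3.79 ± 0.296 CPM, and with its near-identical copy IFNL3 the sum fell from 15.5 ± 0.833 to 5.49 ± 0.0794 CPM. IFNB1, interferon beta, had 37 counts over the control libraries and 10 with sh2, a level too low to compare beyond these counts. Of 22 genes of RNA sensing and interferon signalling, 11 rose and 9 fell (median 0.05). TLR3, an endosomal sensor, rose by 0.52 ± 0.049, ZBP1, a sensor of left-handed nucleic acid, by 1.53 ± 0.11, EIF2AK2, the kinase PKR, by 0.22 ± 0.03 and IFIH1, which encodes MDA5, by 0.14 ± 0.029. RIGI, which encodes RIG-I, fell by 0.18 on the log2 scale and IRF3 did not pass the test (-0.01).

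Antigen presentation genes rose. Class I molecules pair an HLA heavy chain with beta-2 microglobulin (B2M) and show peptides that the proteasome cuts and TAP carries into the endoplasmic reticulum. Of 21 such genes, 15 rose and 2 fell, with a median of 0.46 with sh2 and 0.01 with sh1. B2M stood at 1650, 1580 and 1520 CPM in control, 1750, 1890 and 1840 with sh1 and 2680, 2790 and 2650 with sh2. Its gain, from 4090 ± 113 to 6670 ± 179 TPM, was the greatest of any called gene. HLA-B and HLA-C rose by 0.79 ± 0.029 and 0.8 ± 0.031, beside 0.59 and 0.63 with sh1. They share near-identical stretches, and their sum rose from 1820 ± 57 to 3150 ± 78 CPM.

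NLRC5, the class I transactivator, rose from 57.7 ± 1.24 to 86.3 ± 1.05 CPM. TAP1 and PSMB9, a peptide transporter and an immunoproteasome subunit, rose with sh2 (0.27 ± 0.029 and 0.5 ± 0.044) and fell with sh1 (-0.43 ± 0.03 and -0.49 ± 0.049). ERAP1, the aminopeptidase that trims peptides, went against most of the list. It fell from 155, 152 and 152 to 87.1, 88 and 90.5 CPM, with sh1 at 194, 189 and 193. The plot of interferon and antigen presentation genes shows these values by library.

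**Figure D4:**
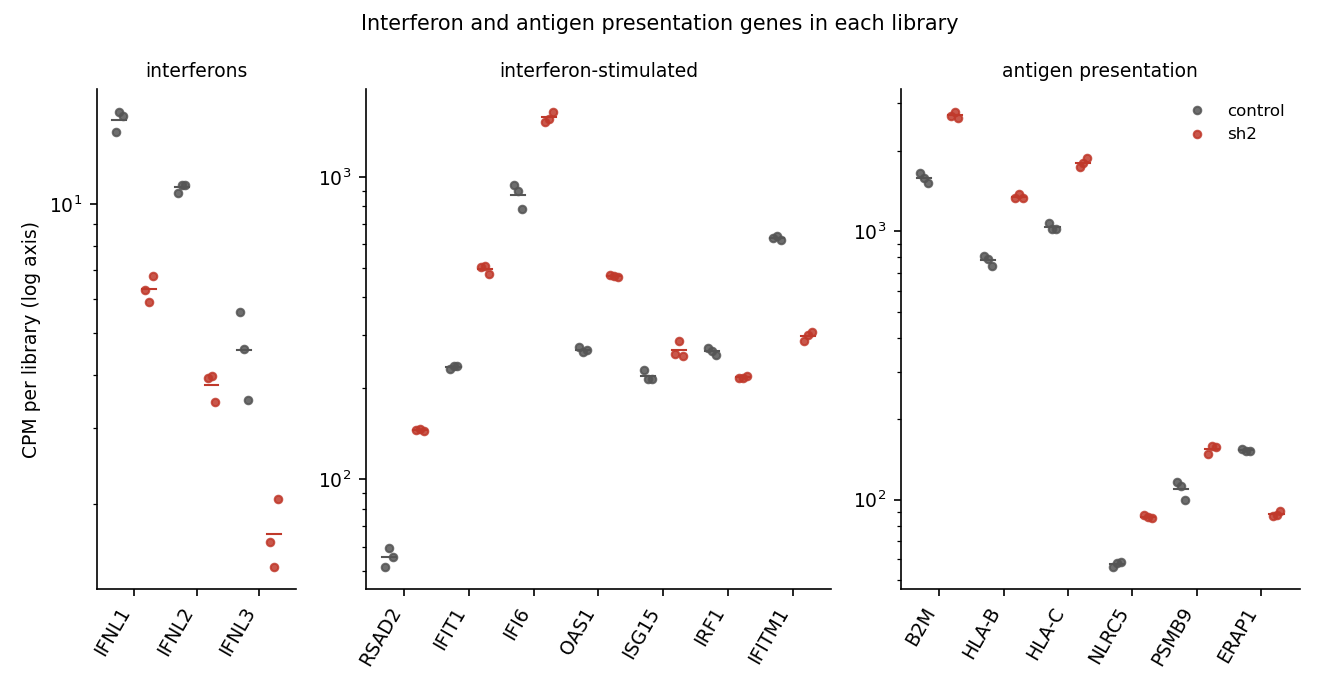
CPM of interferon genes, interferon-stimulated genes and antigen presentation genes in each of the 3 control (grey) and 3 sh2 (red) libraries, on log axes; points are libraries and short lines are group means. The IFNL genes, IFITM1, IRF1 and ERAP1 are lower with sh2, while RSAD2, IFIT1, B2M and the HLA genes are higher.

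An interferon response element was searched as a pair of GAAA copies with 2 bases of any kind between them, on both strands. It was present in 18 of 29 interferon-stimulated promoters (62.1%), 9 of 16 antigen presentation promoters (56.2%) and 2.93% of all. With the element, 13 of 18 interferon-stimulated genes rose and 3 fell (median 0.26). Without it, 9 of 11 rose and 2 fell (median 0.44). Of the antigen presentation genes, 5 of 9 with the element rose and 2 fell (median 0.21), and 7 of 7 without it rose (median 0.61). The promoters of 3 rising genes and of IFITM1, which fell, are shown with the element in capitals to let them be compared.
IFIT1: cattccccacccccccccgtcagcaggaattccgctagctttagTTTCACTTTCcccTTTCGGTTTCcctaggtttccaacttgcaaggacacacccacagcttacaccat
IFI6: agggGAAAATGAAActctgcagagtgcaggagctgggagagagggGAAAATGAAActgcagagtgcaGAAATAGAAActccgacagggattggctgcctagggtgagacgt
B2M: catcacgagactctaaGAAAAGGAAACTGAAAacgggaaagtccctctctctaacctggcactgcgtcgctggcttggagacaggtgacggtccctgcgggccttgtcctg
IFITM1: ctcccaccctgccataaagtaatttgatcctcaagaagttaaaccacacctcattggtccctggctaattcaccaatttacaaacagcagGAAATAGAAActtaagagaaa
They cover chr10:89392463-89392573 (IFIT1, + strand), chr1:27672242-27672352 (IFI6, - strand), chr15:44711357-44711467 (B2M, + strand) and chr11:313910-314020 (IFITM1, + strand) of GRCh38.p14. The first 3 run from base -160 to base -50 relative to the start and the last from -130 to -20. IFIT1 holds 2 matches and IFI6 3, the 2 matches in B2M overlap, and the falling gene IFITM1 holds 1.

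The machinery that processes hairpins was close to control. Of 16 genes, 8 rose and 1 fell, and 7 did not pass the test, a share of calls of 56.2% that lies below the 68.5% of all genes. DROSHA and DGCR8, which cut primary microRNAs, changed by 0.2 ± 0.031 and 0.11 ± 0.04, and DICER1 and AGO2 did not pass the test (0.06 and -0.04). XPO5, the exporter of hairpins from the nucleus, fell from 160 ± 3.08 to 115 ± 3.6 CPM, and TNRC6A, an Argonaute partner in silencing, rose from 120 ± 1.38 to 225 ± 5.21 CPM, with TNRC6B rising by 0.59 ± 0.046.

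Adhesion genes were lower. Integrins are pairs of alpha and beta chains that tie cells to matrix, and focal adhesions link them to actin. Of 14 integrin genes tested, 2 rose and 10 fell, with a median of -0.43 with sh2 and 0.03 with sh1. ITGAV, the alpha chain of receptors for vitronectin and latent TGF-beta, stood at 224, 225 and 221 CPM in control, 235, 228 and 224 with sh1 and 74.6, 73.5 and 70.1 with sh2. Its beta partners fell too, ITGB8 from 62.7 ± 5.03 to 17.9 ± 0.995 CPM, ITGB6 from 74.8 ± 0.678 to 40.3 ± 1.45 CPM and ITGB5 from 21.1 ± 0.568 to 12.2 ± 0.469 CPM. The ITGAV partner ITGB1 changed little (-0.16 ± 0.026).

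The chains of the hemidesmosome, ITGA6 and ITGB4, fell by 0.45 and 0.43 on the log2 scale. ITGA5, the fibronectin receptor chain, rose from 36, 36.2 and 38.1 to 109, 109 and 110 CPM, a log2 change of 1.57 beside 1.62 with sh1. ITGA3, a laminin receptor chain, rose by 0.24 ± 0.026. ITGA2, a collagen receptor chain, fell by 0.24. Of 24 focal adhesion genes, 3 rose and 14 fell, with a median of -0.2 with sh2 and -0.21 with sh1. VASP, which extends actin filaments, fell from 116, 115 and 117 to 46.8, 45.4 and 47.2 CPM, and TNS4, a tensin of epithelial cells, from 444 ± 7.03 to 217 ± 13.1 CPM. The actin crosslinkers ACTN4, ACTN1 and FLNA fell by 0.72, 0.45 and 0.31, VCL, vinculin, by 0.3, CAV1, caveolin 1, by 0.22 and ZYX, zyxin, by 0.1. PTK2 and PXN, the core signalling proteins FAK and paxillin, did not pass the test (-0.01 and -0.05), and FERMT2, an integrin activator, rose by 0.3 ± 0.028.

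Matrix genes moved in both directions. Of 27 genes of basement membrane and matrix, 9 rose and 14 fell, with a median of -0.13 with sh2 and 0.58 with sh1. Besides SPARC, the collagen chains COL12A1 and COL5A1 fell from 206 ± 1.66 to 71.6 ± 3.23 CPM and from 45.1 ± 0.333 to 17 ± 0.262 CPM. COL5A1 rose with sh1, to 77.8 ± 1.5 CPM. THBS1, thrombospondin 1, fell by 0.99 and HSPG2, perlecan, by 0.38 on the log2 scale. The laminin chains LAMA3 and LAMB3 barely moved, with changes of 0.08 and 0.02, and LAMB3 did not pass the test. FN1, fibronectin, rose by 0.49 ± 0.034, and COL17A1, a hemidesmosomal collagen, by 0.59 ± 0.037. SERPINH1, the collagen chaperone, rose from 121 ± 3.82 to 295 ± 3.35 CPM. COL4A2 fell by 0.34 and COL4A1 did not pass the test (-0.06).

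Proteases that cut matrix were split as well, with 11 of 24 higher and 10 lower (median 0). MMP7, matrilysin, stood at 10.1, 11.7 and 10.6 CPM in control, 21.8, 19.7 and 21 with sh1 and 52.1, 50.6 and 53.1 with sh2. MMP13, a collagenase, rose from 4.49 ± 0.63 to 12.9 ± 0.915 CPM and KLK6, a kallikrein, from 50.8 ± 1.06 to 142 ± 9.85 CPM. The membrane-bound MMP14 fell from 3.21 ± 0.638 to 0.881 ± 0.061 CPM. TIMP1, an inhibitor of metalloproteinases, rose by 0.89 ± 0.051. In the plasminogen system PLAU, urokinase, fell by 0.38 on the log2 scale, while its receptor PLAUR rose by 0.64 ± 0.043.

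Junction genes changed little as a list, with 6 of 24 higher and 10 lower (median -0.07). Their share of calls was 66.7%, beside 68.5% of all genes. Among genes with a mean of at least 10 CPM, 38.7% were called higher and 38.8% lower. CLDN1, claudin 1 of tight junctions, stood apart, at 111, 112 and 115 CPM in control and 24.9, 22.2 and 25.5 with sh2. DSG3, DSP and PKP1 of desmosomes fell by 0.65, 0.45 and 0.53 on the log2 scale, and DSC2 rose by 0.43 ± 0.036. CLDN4, OCLN and TJP1 of tight junctions fell by 0.27, 0.36 and 0.23, and CGN, cingulin, rose by 0.84 ± 0.043.

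Lineage factors of squamous epithelium were lower. Of 27 keratins and lineage factors, 7 rose and 16 fell, with a median of -0.16 (-0.37 without control library 3). TP63 stood at 506, 525 and 523 CPM in control and 231, 226 and 240 with sh2, a log2 change of -1.16 ± 0.03. GRHL3, a factor of the epidermal barrier, stood at 14.6, 18.2 and 18 CPM in control, 14.7, 17.5 and 18.2 with sh1 and 4.26, 6.04 and 5.69 with sh2. KLF4, a factor of late differentiation, fell by 0.39 on the log2 scale. SOX2 went the other way, from 20.8 ± 0.491 to 34.7 ± 2.2 CPM. MYC, a growth-promoting factor, fell from 579 ± 4.91 to 297 ± 11.8 CPM.

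The keratins of basal cells fell. KRT5 changed from 1500 ± 11.3 to 951 ± 30.4 CPM, KRT14 from 34 ± 0.508 to 17.1 ± 0.99 CPM and KRT15 from 861 ± 19.5 to 539 ± 13 CPM. KRT8, of simple epithelia, rose by 0.39 ± 0.025, and KRT17 did not pass the test (-0.05). KRT23 fell by 1.52 on the log2 scale. KRT6A rose by 0.54 ± 0.046 and its near-identical copy KRT6B fell (-0.77 ± 0.053), and the sum of KRT6A, KRT6B and KRT6C stood at 109 ± 1.98 CPM in control and 112 ± 2.2 with sh2.

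The cornified envelope list did not follow IVL and SCEL as a whole. Of 24 tested genes, 12 rose and 7 fell, with a median of 0.23. Among its members with a mean of at least 10 CPM over all libraries, 5 rose and the median was -0.05. The list's median was 0.11 without control library 1, control library 2 or sh2 library 2, each left out alone. SPRR1B, a small proline-rich envelope precursor, rose from 0.721 ± 0.391 to 2.27 ± 0.0897 CPM. TGM1, the crosslinking enzyme, and EVPL, envoplakin, rose by 0.33 ± 0.068 and 0.37 ± 0.038. KRT4 and KRT13, keratins of the differentiated esophageal lining, fell by 0.5 and 0.47 on the log2 scale, and CSTA fell as given above. Of 17 genes of epithelial-mesenchymal transition, 4 rose and 12 fell. SNAI2, a repressor of epithelial genes, fell from 24.4 ± 0.637 to 8.2 ± 0.71 CPM and OVOL1, which keeps cells epithelial, from 44.9 ± 0.211 to 18.3 ± 0.574 CPM. CDH1, E-cadherin, did not pass the test (0.06), CDH2, N-cadherin, fell by 0.95 from 2.64 CPM, GRHL2 fell by 0.35, and EPCAM, RAB25 and ESRP1, epithelial genes, rose by 0.51 ± 0.028, 0.88 ± 0.034 and 0.33 ± 0.034.

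Genes of protein folding and breakdown rose in the cytosol and were divided in the endoplasmic reticulum. Of 34 proteasome genes, 30 rose and 2 fell, with medians of 0.51 with sh2 and 0.52 with sh1. POMP, the proteasome assembly factor, stood at 107, 96.8 and 88.5 CPM in control and 203, 214 and 197 with sh2, and PSMC4, an ATPase of the cap, rose from 87.8 ± 1.45 to 176 ± 4.74 CPM. PSMC1, PSMD1, PSMD11 and PSMA1 rose by 0.84, 0.49, 0.43 and 0.5. PSMB5, the chymotrypsin-like subunit, did not pass the test (0), although it rose with sh1 (0.7 ± 0.037).

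Of 27 cytosolic and mitochondrial chaperones, 20 rose and 4 fell, with a median of 0.47 with sh2 and 0.22 with sh1. HSPA8 rose by 1.3 ± 0.025, HSP90AB1 by 0.7 ± 0.024, HSPD1 by 0.6 ± 0.025, HSPB1 by 0.45 ± 0.033 and DNAJA1 by 0.59 ± 0.031. The stress-induced HSPA1A and HSPA1B, near-identical copies, rose in sum from 454 ± 2.33 to 975 ± 2.51 CPM. BAG3, which hands clients to autophagy, rose with sh2 (0.48 ± 0.037) and fell with sh1 (-0.62 ± 0.042), and HSPH1, a nucleotide exchange factor, did the reverse (-0.34 ± 0.034 and 0.73 ± 0.031). HSF1, which drives these genes, and DNAJB1 did not pass the test (-0.06 and 0.04).

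In the endoplasmic reticulum, 13 of 24 genes rose and 10 fell, with medians of 0.11 with sh2 and 0.54 with sh1. HYOU1, a large chaperone, stood at 162, 167 and 168 CPM in control, 261, 262 and 270 with sh1 and 63.9, 62.3 and 68 with sh2. HSPA5, the chaperone BiP, fell with sh2 (-0.29 ± 0.026) and rose with sh1 (0.92 ± 0.025), a difference of -1.22 ± 0.026. HERPUD1, of protein disposal, fell from 48 ± 3.12 to 17.9 ± 1.24 CPM. The stress sensors ERN1 and ATF6 fell by 1.1 and 0.53 on the log2 scale. CRELD2 rose from 21 ± 0.674 to 46.6 ± 1.34 CPM, PDIA4, a disulfide isomerase, by 0.24 ± 0.031, and DNAJB9 by 0.46 ± 0.101.

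Glycolytic genes rose moderately. Of 28 genes of glycolysis and the pentose phosphate pathway, 19 rose and 4 fell, with a median of 0.24. SLC2A1, the glucose transporter GLUT1, stood at 250, 244 and 247 CPM in control and 437, 444 and 443 with sh2. GAPDH, often used as a reference gene, went from 8020 ± 76.7 to 10500 ± 173 TPM, and PGK1, ALDOA, LDHA and PKM rose by 0.7, 0.61, 0.57 and 0.4. ENO1, enolase, rose by 0.22 ± 0.024 and PFKFB4, which makes an activator of glycolysis, by 0.76 ± 0.073. HK2, hexokinase 2, did not pass the test (-0.01).

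Genes of the hypoxia response did not follow them as a list, with 9 of 21 higher and 7 lower (median 0.07). CA9, a carbonic anhydrase, rose from 21.8 ± 0.986 to 54.7 ± 3.1 CPM and BNIP3, of mitochondrial autophagy, from 40.3 ± 1.93 to 88.7 ± 1.85 CPM. VEGFA, the vascular growth factor, fell from 447, 437 and 471 to 181, 183 and 182 CPM. ADM, adrenomedullin, NDRG1 and EGLN3 fell by 0.71, 0.13 and 0.23 on the log2 scale. EPAS1, which encodes HIF-2 alpha, changed by -1.03 ± 0.03. HIF1A did not pass the test (-0.03).

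Oxidative phosphorylation genes were slightly higher, with 29 of 40 rising and 3 falling and a median of 0.2. NDUFA8 of complex I rose by 0.61 ± 0.049, ATP5MC3 of the ATP synthase by 0.5 ± 0.039 and COX6B1 of complex IV by 0.49 ± 0.046. SDHA, COX4I1, ATP5F1A and NDUFV1 rose by 0.21, 0.25, 0.27 and 0.14. UQCRC2 of complex III fell by 0.21, and NDUFS1 and NDUFB8 did not pass the test (-0.04 and 0.09). Of 30 mitochondrial ribosome and translation genes, 20 rose and 7 fell (median 0.15). MRPL15, MRPL20 and MRPS22 rose with sh2 (0.53, 0.54 and 0.54), and all 3 were called lower with sh1 (-0.72, -1.4 and -0.12). MRPL3 and MRPL12 rose by 0.25 and 0.35, TFAM, which packs mitochondrial DNA, by 0.16, and TUFM did not pass the test (0.01).

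Ribosome genes went 2 ways. Of 38 cytosolic ribosomal protein genes, 25 rose and 5 fell (median 0.15), and of 30 genes that build the ribosome in the nucleolus, 7 rose and 15 fell (median -0.13). RPS14 fell from 422, 398 and 400 to 272, 283 and 281 CPM, while RPL38 and RPS27L rose by 0.48 ± 0.048 and 0.59 ± 0.076. RPL3 fell by 0.18, RPS3 rose by 0.11 ± 0.029, and RPS6 and RPLP0 did not pass the test (0.04 and 0). RPS2 was among the greatest losses per length, from 7140 ± 131 to 6040 ± 225 TPM. In the nucleolus DDX21, a helicase of ribosomal RNA transcription, fell from 406 ± 4.85 to 250 ± 4.22 CPM, and POLR1B and RRP12 fell by 0.7 and 0.79. NPM1, NCL, FBL and BOP1 rose by 0.38, 0.12, 0.11 and 0.18, and POLR1A did not pass the test (0.04). The ribosomal protein genes have many processed pseudogenes, which leaves their read assignment uncertain.

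Growth factor ligands and receptors were mostly lower. Of 28 genes of receptor tyrosine kinases and their ligands, 6 rose and 17 fell, with a median of -0.31. HBEGF, an EGF receptor ligand, stood at 32.6, 33.2 and 35 CPM in control and 7.7, 7.4 and 9.46 with sh2, and the ligands EREG, NRG1 and AREG fell by 1.66, 1.61 and 1.34 on the log2 scale. EREG fell less than with sh1 (difference 1.88 ± 0.078). Of the receptors, EGFR, ERBB2, MET and IGF1R fell by 0.44, 0.31, 0.3 and 0.37, and AXL, FGFR2 and EPHA2 by 0.74, 0.7 and 0.85. IGFBP3, which binds insulin-like growth factors, rose from 667, 668 and 660 to 1080, 1080 and 1070 CPM with no change called with sh1 (0.01).

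Notch genes were mostly lower, with 3 of 21 higher and 13 lower (median -0.33). The ligand DLL1 fell from 48 ± 3.08 to 15.4 ± 1.1 CPM, and JAG1 and JAG2 fell by 0.83 and 0.7 on the log2 scale. The target HES1 fell by 0.7 and the receptor NOTCH1 by 0.4, while NOTCH3, a receptor, and NCSTN, a subunit of the protease that frees the receptor's inner part, rose by 0.47 ± 0.032 and 0.89 ± 0.033. HEY1 did not pass the test, at -0.31.

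Among transcripts of great abundance, further shifts came from TMSB10 and PTMA, which went from 2650 ± 80.9 to 4060 ± 161 TPM and from 3570 ± 129 to 4820 ± 89.9 TPM. TMSB10 encodes a thymosin that binds actin monomers, and PTMA encodes prothymosin alpha, a small acidic nuclear protein. DDIT4, an inhibitor of mTORC1, fell from 1250 ± 9.04 to 382 ± 12.5 TPM, less than with sh1 (log2 difference 1.24 ± 0.033). IFITM1 went from 2210 ± 37.8 to 1000 ± 30.5 TPM. The plot of 41 gene lists shows how the members of each were spread around their median.

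**Figure D5:**
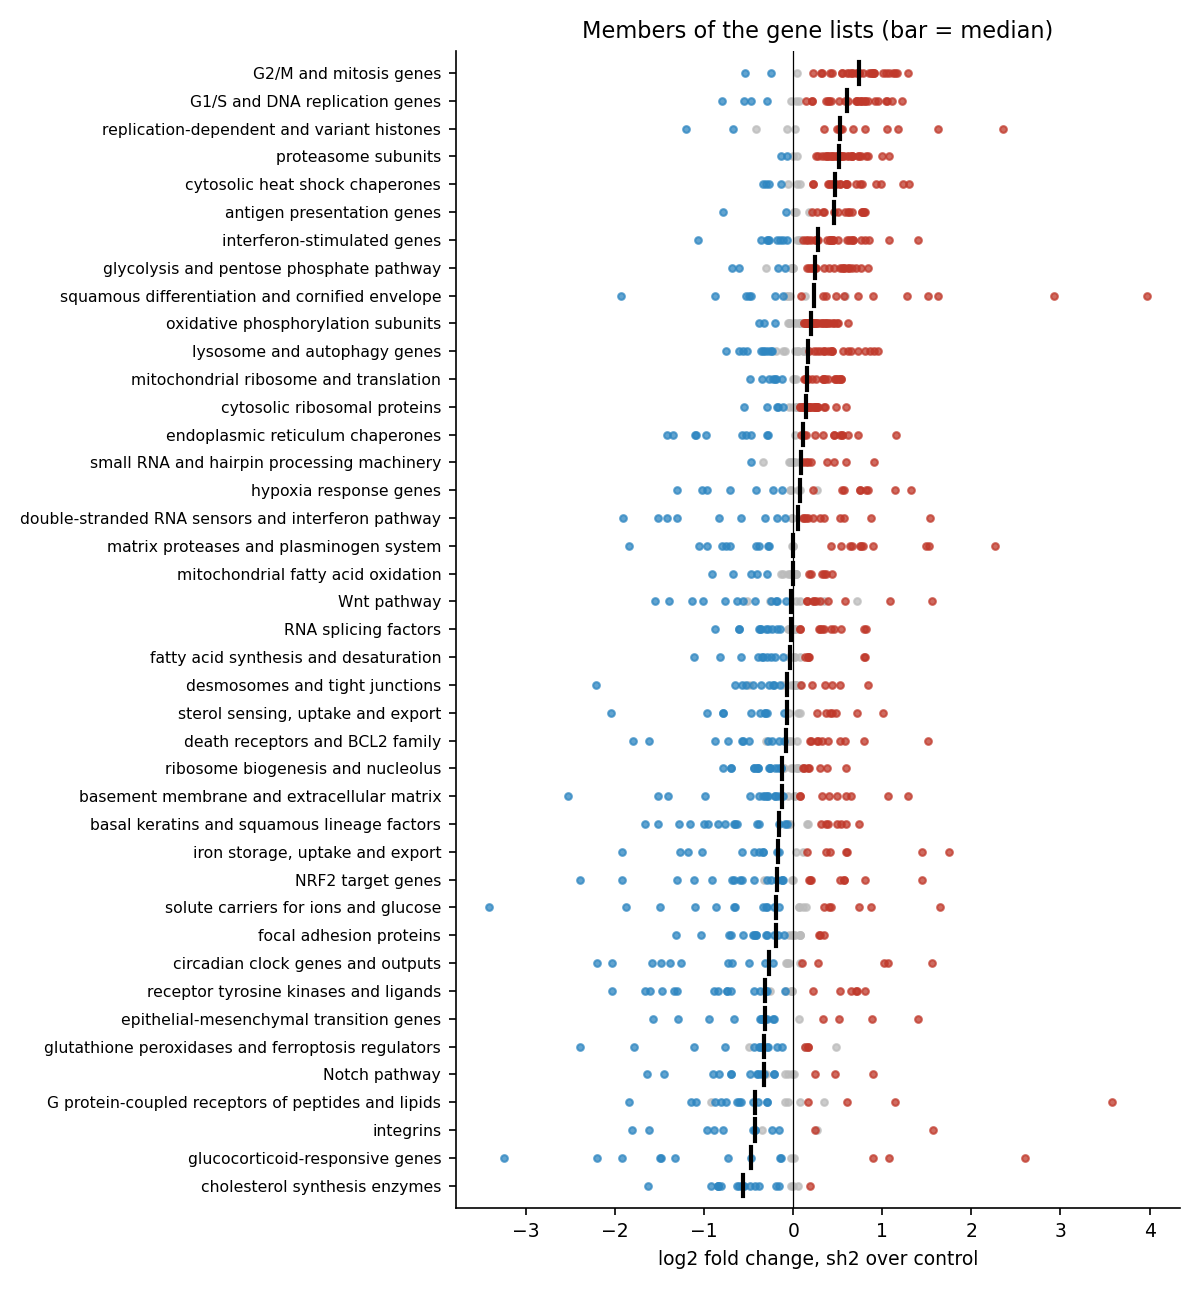
Log2 fold changes of sh2 over control for the tested members of 41 gene lists, ordered by median; red points were called higher, blue points lower and grey points were not called, and the black bar is the median. The medians run from -0.56 (cholesterol synthesis) to 0.74 (G2/M and mitosis), and nearly every list holds members on both sides of 0.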

How the data were processed

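Total RNA of the infected KYSE510 cells was sequenced on a BGISEQ-500, per the labels' protocols. Tools listed by the submitters' processing notes, with no role for any of them, are RSEM 1.2.12, HISAT2 2.0.4, DESeq2 1.4.5 and Bowtie2 2.2.5, and the build listed is hg19. No source used here says if counting kept strand, so overlapping and antisense genes cannot be told apart. Each table holds, per the file headers, 3 values for every gene that the authors deposited: FPKM, TPM and expected count. Expected counts, estimated by the authors and not normalized, were rounded to whole numbers here and fitted with edgeR 4.0.16 (TMM scaling, its default filter, quasi-likelihood test) over all 9 libraries. The TPM values, as deposited by the authors, serve for levels between genes. The FPKM values, as deposited by the authors, served in an alternative fit with limma 3.58.1, and DESeq2 1.42.0 in another.

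Entrez identifiers were named through RefSeq (GRCh38.p14), with 19223 of 19266 matched. Members and gene lists were chosen with earlier results of these data known. The text names the 10 genes with the greatest rise and fall in fold among called genes with a mean of at least 10 CPM in control or sh2 and no overlap between the groups, the 6 in TPM, the 6 in each direction that sh1 moved by less than 0.5, and, in each list, its central members and the 3 with the greatest change, the sh1 rule and these 3 at the same minimum. FDFT1, EBP, PMVK, MSMO1, SLC39A14, ACO1, CCNB2, CDC25B, PTTG1, MAD2L1, PRIM1, SERPINH1, EPAS1, KRT6B, SULT1A3 and SULT1A4 were named after their values were seen. Some genes and 1 gene list are not reported here. Genes at a floor of 3 counts in a library were given no fold. The fit was tested on simulated data.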

Additional observations from a re-analysis of the deposited data

How the results depend on the processing

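Of 386 genes named, 362 kept their call and direction under all 15 alternatives in which they were tested, and no called gene changed direction. The 9298 calls became 8867 to 9042 when 1 library was left out, and 8191 with DESeq2. The 1053 genes called at 2-fold or more became 1088 to 1119 when 1 library was left out, 500 (132 higher, 368 lower) among genes with a mean of at least 10 CPM, where fewer genes were tested, 471 (148 and 323) with limma on log2(FPKM + 1) and 694 (229 and 465) on log2(FPKM + 0.1). The limma fits differ in unit, tool and genes tested. Upper-quartile scaling moved the median of all genes by 0.02. The median of the cornified envelope list turned from 0.23 to -0.05 among genes with a mean of at least 10 CPM, where fewer members were tested. The basal keratin and lineage list moved from -0.16 to -0.4 there, the clock list from -0.27 to -0.41, and to -0.49 with limma on log2(FPKM + 0.1), and the Notch list from -0.33 to -0.21 with limma on log2(FPKM + 1). The cause of these moves was not tested.

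Small calls were lost without 1 library. The highest adjusted p, with the log2 fold change, was 0.228 for CCNE1 (0.12, without control library 3), 0.284 for LAMA3 (0.04, without control library 2) and 0.328 for ZYX (-0.05, without sh2 library 2), all from edgeR. DBP, DGCR8, DKK1, FBL, FKBP5, INSIG1, PKP1, RAMP1, SRSF1 and TFEB lost their calls likewise.

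Same-numbered tables of control and sh2 did not deviate together (correlations across genes of 0.02, -0.07 and 0.03), so the numbers are not taken as pairs. With the table number as a replicate block, 9295 genes were called, and 1053 at 2-fold or more.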

Other observations

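Clock genes moved in both directions with sh2, with 11 of 20 called lower and 5 higher (median -0.27, and -0.52 with sh1). At 2-fold or more, 6 were lower and 3 higher, and the changes of the list ran from -2.2 to 1.56. PER1 and PER3, which repress the clock's activators, went from 27.8 ± 1.78 to 6.06 ± 0.58 CPM and from 32.7 ± 1.3 to 10.9 ± 0.368 CPM. NR1D1, a nuclear receptor that represses BMAL1, went from 29.5, 32.9 and 30.3 to 9.02, 7.03 and 6.39 CPM. Its groups did not overlap, as for 70.3% of all genes tested. CLOCK, NFIL3 and DBP fell by 0.5, 0.73 and 0.23 on the log2 scale, and BMAL1 did not pass the test (-0.07). Of 15 glucocorticoid-responsive genes, which include PER1, 3 rose and 10 fell (median -0.48). TSC22D3 and ERRFI1 fell by 1.48 and 1.5, KLF9 went from 3.99 ± 0.94 to 1.05 ± 0.285 CPM, and FKBP5 and SGK1 fell by 0.15 and 0.14. The receptor gene NR3C1 did not pass the test (-0.02), and the metallothioneins MT2A and MT1X rose by 2.6 and 1.07.

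Lysosomal and autophagy genes moved both ways, with 18 of 37 higher and 10 lower (median 0.16). CTSS and CTSD, lysosomal proteases, rose by 0.91 ± 0.037 and 0.61 ± 0.026, and ATP6V0D1 and ATP6V1H of the proton pump by 0.95 ± 0.055 and 0.86 ± 0.05. SQSTM1 rose by 0.27, and LAMP1 rose with sh2 (0.34 ± 0.029) and fell with sh1 (-1.73 ± 0.035). MAP1LC3B, of the autophagosome membrane, fell from 58 ± 3.09 to 34.4 ± 0.367 CPM, CTSB and TFEB fell by 0.32 and 0.24, and LAMP2 and PSAP did not pass the test (0.02 and 0.05). Of 17 histone genes, 12 rose and 2 fell (median 0.53). H2BC12 rose by 1.63 ± 0.04, H2AC6 by 1.18 ± 0.075, H2AX by 0.67 ± 0.052, H2AZ1 by 0.51 ± 0.043, H3-3B by 0.81 ± 0.034 and SLBP by 0.55 ± 0.04, and the linker H1-10 fell by 1.21. Histone genes of a family share near-identical sequence, which leaves their read assignment uncertain.

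Wnt genes (10 of 28 higher, 12 lower), splicing factors (11 of 28 higher, 11 lower) and genes of cell death (10 of 27 higher, 11 lower) had medians of -0.02, -0.02 and -0.08. WNT5A and FZD10 were lower (-1.14 and -1.39), WNT7A rose by 1.09 ± 0.129 and CTNNB1, beta-catenin, by 0.23 ± 0.029, RNF43 and DKK1 rose by 0.22 ± 0.051 and 0.25 ± 0.1, and LEF1 and TCF7 did not pass the test (0.71 and -0.26). The splicing kinase CLK1 fell by 0.88, SRSF3 and TRA2A by 0.31 and 0.38, and SNRPD1, SF3A1, HNRNPA1, RBM3 and CIRBP rose by 0.82, 0.79, 0.32, 0.42 and 0.29. SRSF1 rose by 0.08 ± 0.027 and SF3B1 did not pass the test (0.02). TNFRSF21, death receptor 6, went from 255, 264 and 250 CPM in control to 75.8, 72.7 and 72.8 with sh2, and stood at 249, 247 and 257 with sh1. BMF, a BH3-only killer, rose by 1.51 ± 0.062, BAX by 0.39 and BIRC3 by 0.2. PMAIP1, TNFRSF10B, BCL2 and CFLAR fell by 0.56, 0.58, 0.88 and 0.1, and MCL1, BCL2L1 and TNFSF10 did not pass the test (-0.05, -0.03 and 0.04).

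Of 22 ion and glucose carriers, 6 rose and 12 fell (median -0.19), and of 22 receptors of peptides and lipids, 4 rose and 13 fell (median -0.42). SLC39A10, a zinc importer, went from 139 ± 1.78 to 37.9 ± 0.804 CPM and SLC30A1, a zinc exporter, rose by 0.74 ± 0.066. SLC6A6, the taurine transporter, stood at 85, 85.7 and 85.8 CPM in control, 81, 70.5 and 76.7 with sh1 and 31.7, 29.3 and 29.7 with sh2. SLC6A14, an amino acid transporter, rose by 1.65 ± 0.078, ATP1B1 rose by 0.42, and SLC20A1 fell by 0.34. BDKRB1, the inducible bradykinin receptor, went from 17.1 ± 0.917 to 4.76 ± 0.273 CPM and PTGER4, a prostaglandin receptor, from 18.3 ± 0.999 to 8.57 ± 0.778 CPM. F2RL1, GPRC5A and F2R fell by 0.61, 0.63 and 0.3. CALCR, the calcitonin receptor, had 14 counts over the control libraries and 180 with sh2, and RAMP1, its partner protein, rose by 0.6 ± 0.192 from 2.2 CPM.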
